A study of Mus musculus with 4 samples.

Results

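Serum response factor (SRF), its myocardin-family coactivators and the MEF2 and GATA factors that act beside them in muscle and mesenchyme were examined in mouse embryonic fibroblasts with and without Med1. The set held 9 genes, Srf, Mrtfa, Mrtfb, Myocd, Mef2a, Mef2c, Mef2d, Gata4 and Gata6. Its members were all probe sets annotated to those genes by name, 22 of the 22626 on the array besides controls, and 9 of the 12393 named genes. The rule for probe sets used no measured value, but the genes were chosen with earlier results of these data known. An expression filter, a mean normalized signal of at least 33.3 (the 40th percentile), left 12 of the 22 probe sets for testing. They belonged to 6 genes, and Mrtfb, Myocd and Mef2c had no probe set above the filter.

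SRF is a MADS-box factor that binds the CArG box in promoters of actin, contractile and serum-induced genes. Mrtfa and Mrtfb encode coactivators that are held in the cytoplasm by monomeric actin and enter the nucleus when actin assembles into filaments, whereas Myocd encodes myocardin, a constitutively nuclear relative known from heart and smooth muscle. MEF2 factors are MADS-box relatives of SRF that bind a different A/T-rich site and are restrained by class IIa histone deacetylases, and Gata4 and Gata6 encode zinc finger factors of heart, mesothelium and endoderm that can bind DNA beside SRF.

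The fibroblasts were grown from C57BL/6J embryos of embryonic day 10.0. The study had 2 groups of 2 arrays, Med1+/+ p53-/- and Med1-/- p53-/-, so that every sample lacked p53 and the genotypes differed in Med1, which encodes a Mediator subunit that joins transcription factors to RNA polymerase II. Per the labels, a single cross of Med1+/- parents gave both genotypes. Whether the 2 arrays of each genotype had separate cultures or embryos as their source is not stated, so p-values measure only how these samples vary, and that variation may be technical, and loss of Med1 cannot be told apart from other differences between the cultures.

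The brightest Med1 probe set, 1448708_at, gave deposited signals of 664.6 and 885.6 in Med1+/+ samples, compared with 25.4 and 40.2 in Med1-/- samples, in the direction of the labels. Deposited medians ranged from 76.25 to 106.65 in Med1+/+ and from 36.1 to 51.4 in Med1-/- samples, and the arrays were quantile normalized. The genotypes differed across most of the array: of 13576 probe sets tested, 72.1% passed an adjusted p of 0.05 (limma, Benjamini-Hochberg), 36.3% higher and 35.7% lower in Med1-/- cells. The share of calls that were higher was 50.4% after quantile normalization but 5.14% without normalization, and it was 15.6% when hybridisation controls set the scale and 1.38% when Bacillus subtilis controls did. A gene called higher or lower is therefore so relative to the other genes measured. Of 13 fibroblast and mesenchymal markers 12 passed the filter, and they moved both ways: Col1a1 (1.98) and Thy1 (1.34) were among 5 that rose, Pdgfra (-2.95), Prrx1 (-2.89) and Dcn (-1.99) fell, Vim (0.06) was among 4 that did not pass, and Lum was below the filter in both genotypes. The ratio of the 3' to the 5' Gapdh control probe set, which rises when RNA is degraded, was 0.947 and 0.900 in Med1+/+ samples, against 1.11 and 1.005 in Med1-/- samples, and the same ratio for beta-actin was 1.52 and 1.38 in Med1+/+ samples, against 1.28 and 1.22 in Med1-/- samples.

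In Med1-/- cells the signals of Srf and its coactivator gene Mrtfa were about 3-fold higher, Mef2d was higher, and Mef2a was lower on each of its 4 tested probe sets. Gata6 was higher after quantile normalization, and Gata4 did not pass the test. The directions of Srf, Mrtfa, Mef2d 1434487_at and Gata6 depended on the scaling, whereas Mef2a kept its direction and call. Scaled on the Bacillus subtilis controls, Srf 1418255_s_at changed by -0.09, Mrtfa by -0.02, Mef2d 1434487_at by -0.52 and Gata6 1425464_at by -0.88. In all, 7 of the 12 tested probe sets were higher, 4 lower and 1 not called, which is 11 of 12 against 72.1% of all probe sets tested. After normalization the genotypes did not overlap on any of the 12, against 87% of all tested probe sets. As deposited they overlapped on Gata4 1418863_at and Gata6 1425464_at. With most of the array called, these counts do not set the members apart. The median log2 change of the 12 was 0.62, against 0.03 over all tested probe sets. In these bulk samples, fewer cells of a type and less RNA per cell cannot be told apart.

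**Figure D1:**
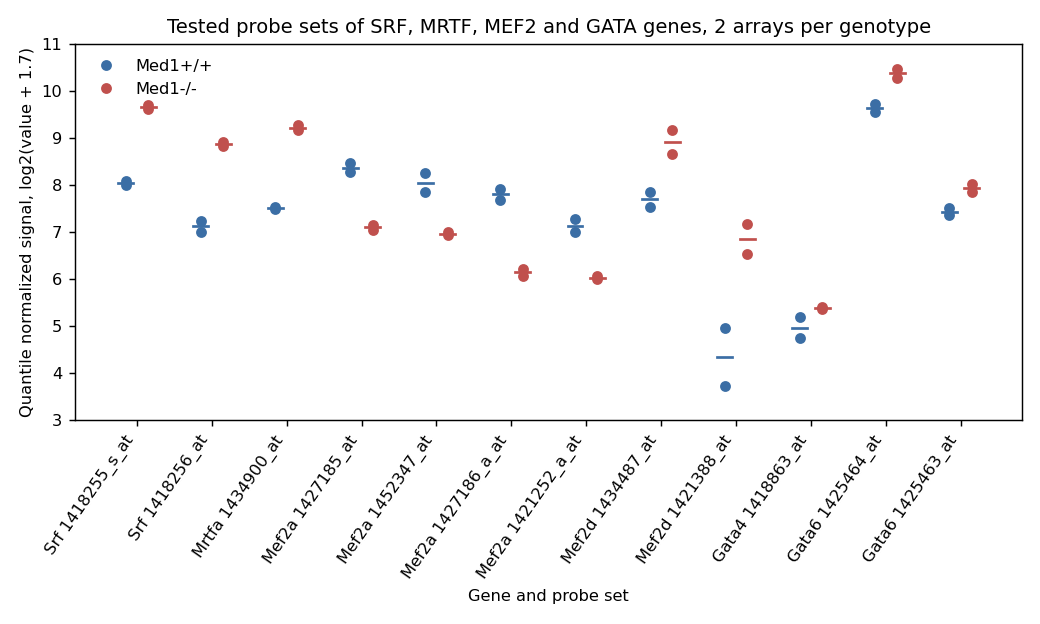
Quantile normalized signal, log2(value + 1.7), of the 12 tested probe sets of SRF, MRTF, MEF2 and GATA genes (x axis). Each point is 1 array, blue for Med1+/+ and red for Med1-/-, and the bars are means of 2 arrays. Red points lie above blue ones for Srf, Mrtfa, Mef2d, Gata4 and Gata6 and below them for all 4 Mef2a probe sets.

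Srf was higher in Med1-/- cells on both of its probe sets. On the brighter, 1418255_s_at, the deposited signal was 293.6 and 388.1 in Med1+/+ samples, against 495.5 and 678.5 in Med1-/- samples. Both Med1-/- arrays thus exceeded both Med1+/+ arrays before any scaling, although the Med1-/- arrays were the dimmer ones as a whole. After normalization the mean log2 value rose from 8.04 ± 0.057 to 9.66 ± 0.061 (SD, n = 2), a log2 change of 1.61 (SE 0.11; adjusted p = 0.000103, limma) or 3.06-fold. On the other, 1418256_at, the deposited signal was 164.4 and 199.7 in Med1+/+ samples, against 264.7 and 403.3 in Med1-/- samples, again without overlap. Its log2 change was 1.75 (SE 0.13; adjusted p = 0.000125, limma), so the estimates of both probe sets lay within each other's 95% intervals, 1.34 to 1.88 and 1.42 to 2.07. The suffix of the brighter set marks one that can match transcripts of other genes, and the second set has no such mark.

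The Srf promoter is shown because SRF is known to bind its own gene. It is the RefSeq sequence (GRCm38.p6) of the 250 bases before the annotated start, chr17:46556163-46556412 on the minus strand, read 5′ to 3′, with CArG boxes in capitals.
Srf: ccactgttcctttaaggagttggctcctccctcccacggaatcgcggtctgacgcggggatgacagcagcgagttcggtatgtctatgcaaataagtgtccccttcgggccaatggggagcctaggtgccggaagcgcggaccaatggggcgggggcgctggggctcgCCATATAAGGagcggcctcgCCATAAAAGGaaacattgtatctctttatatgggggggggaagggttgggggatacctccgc
The 2 CArG boxes begin 82 and 62 bases before the start. A CArG box was present in 1.63% of all 32851 RefSeq promoter windows of 300 bases (250 before and 50 after a start; the motif reads the same on both strands). Of the 9 genes, 6 had a window, and Srf was the only one of these 6 with a CArG box. Myocd, Gata4 and Gata6 had none in the table. These matches describe letters and do not show binding.

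Mrtfa, which encodes the actin-regulated coactivator of SRF, was measured by 1 probe set, 1434900_at. Its deposited signal was 202.4 and 275.5 in Med1+/+ samples, against 341.3 and 530 in Med1-/- samples, and the genotypes did not overlap. The mean log2 value rose from 7.50 ± 0.032 to 9.22 ± 0.068 (SD, n = 2), a log2 change of 1.72 (SE 0.12; adjusted p = 9.98e-05, limma) or 3.29-fold. The change was close to that of Srf. In a comparison within arrays, where the array's scale cancels, the ratio of Mrtfa to Srf signal moved by 0.07 log2 between genotypes, and its values in the genotypes overlapped.

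The other coactivator genes were dim. Mrtfb, the closest relative of Mrtfa, had deposited signals of 26 and 39.7 in Med1+/+ and 26 and 25.6 in Med1-/- samples on 1428028_at, and these overlapped. Its mean normalized signal, 32.8, lay just under the filter. Without a filter its log2 change was 0.66 (SE 0.37; adjusted p = 0.206, limma), and with a filter on the brighter genotype the adjusted p was 0.117. Myocd, the muscle-restricted member, gave at most 15.2 on 1425978_at and at most 0.9 on 1425808_a_at on any array as deposited. No difference in Myocd was detectable at these signals (adjusted p = 0.187 and 0.662 without a filter, limma).

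Among the MEF2 genes, Mef2a and Mef2d moved in opposite directions. Mef2a, which encodes a MEF2 factor found in many tissues, had deposited signals of 334.1 and 527.7 in Med1+/+ and 70.5 and 109.8 in Med1-/- samples on its brightest probe set, 1427185_at. Every Med1-/- array was below every Med1+/+ array. The mean log2 value fell from 8.37 ± 0.13 to 7.10 ± 0.078 (SD, n = 2), a log2 change of -1.27 (SE 0.14; adjusted p = 0.000328, limma), 2.42-fold lower in Med1-/- cells. The other 3 tested Mef2a probe sets changed by -1.66 (1427186_a_at), -1.11 (1421252_a_at) and -1.09 (1452347_at), with adjusted p-values of 0.000256, 0.00181 and 0.00153 (limma). On these 3 sets the deposited signals ran from 139.9 to 457.2 in Med1+/+ and from 33.1 to 97.3 in Med1-/- samples. The fifth, 1425426_a_at, was below the filter, with deposited signals of 13.8 and 3.4 in Med1+/+ and 1.5 and 2.1 in Med1-/- samples. The 4 sets come from the same RNA and are not separate observations of the genotype.

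The Mef2a promoter held a site of the kind that MEF2 factors bind, and it is shown for that reason with the site in capitals. It is the RefSeq sequence (GRCm38.p6) chr7:67372851-67373108 on the minus strand, and the site begins 2 bases before the annotated start and runs past it.
Mef2a: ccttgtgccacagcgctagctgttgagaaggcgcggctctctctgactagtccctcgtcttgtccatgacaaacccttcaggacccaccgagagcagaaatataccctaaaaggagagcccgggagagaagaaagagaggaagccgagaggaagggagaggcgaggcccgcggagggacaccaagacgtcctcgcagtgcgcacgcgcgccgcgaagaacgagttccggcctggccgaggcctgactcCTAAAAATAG
MEF2 sites were present in 3.19% of all promoter windows, and among the 6 genes with a window in those of Mef2a and Mrtfb. The GATA motif, searched as AGATAA or TGATAA on both strands, was present in 18.6% of all windows and, among the 6 genes, in a window of Mrtfb.

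Mef2d, which encodes another broadly expressed MEF2 factor, had deposited signals of 250.7 and 286.4 in Med1+/+ and 342 and 341.2 in Med1-/- samples on 1434487_at. The log2 change was 1.23 (SE 0.20; adjusted p = 0.00188, limma), a 2.34-fold rise, and the normalized replicates spread more than those of Srf (SD 0.22 in Med1+/+ and 0.36 in Med1-/-, log2). The dimmer probe set, 1421388_at, read 12.2 and 45.1 in Med1+/+ and 48.6 and 112.5 in Med1-/- samples and changed by 2.53 (SE 0.46; adjusted p = 0.00291, limma). Its Med1+/+ mean lay under the filter, so it was tested because of its signal in Med1-/- cells, and its change ranged from 1.90 without Med1+/+ replicate 1 to 3.07 without Med1+/+ replicate 2.

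Mef2c, a MEF2 gene with known roles in heart and skeletal muscle, was near background in Med1-/- samples. The 5 probe sets all had means below the filter. On the brightest, 1424852_at, the deposited signal was 46 and 39.7 in Med1+/+ samples, against 2 and 6.7 in Med1-/- samples. On the next, 1421027_a_at, it was 25.6 and 35.5 against 2.3 and 2.4. The deposited values of the genotypes did not overlap on any of the 5 sets, and after normalization they overlapped on 1451507_at, where Med1+/+ replicates read 1.9 and 21.9 as deposited. Without the filter, 1424852_at, 1421027_a_at and 1451506_at passed the test, with log2 changes of -2.32, -2.35 and -2.34 (adjusted p = 0.0172, 0.00905 and 0.0204, limma), and 1421028_a_at and 1451507_at did not (adjusted p = 0.182 and 0.377). With a filter on the brighter genotype only 1424852_at was tested (adjusted p = 0.0144). Of the 10 member probe sets below the filter, the normalized values of the genotypes did not overlap on 9, against 45.1% of all probe sets below it, but as deposited they overlapped or tied for Mrtfb, both Myocd sets and Gata4 1418864_at. At such signals the size of the fold is affected by the pseudocount of 1.7.

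**Figure D2:**
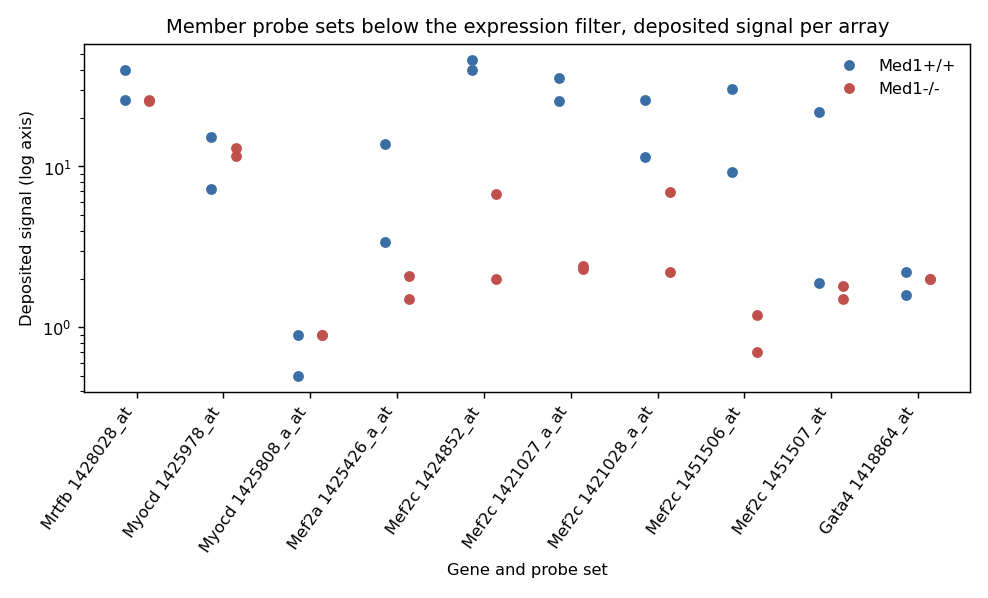
Deposited signal (log axis) of the 10 member probe sets below the expression filter, 1 point per array, blue for Med1+/+ and red for Med1-/-. The Mef2c sets read 1.9 to 46 in Med1+/+ and 0.7 to 6.9 in Med1-/- samples, whereas the deposited signals of Mrtfb, Myocd and the second Gata4 set overlap or tie between genotypes.

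Gata6 had nearly equal deposited signals in the genotypes on 1 of its probe sets and lower ones in Med1-/- samples on the other. On 1425464_at the deposited signal was 887.1 and 1112.3 in Med1+/+ samples, against 879.4 and 1105.2 in Med1-/- samples, so that the genotypes overlapped before normalization. On 1425463_at it read 199.7 and 251.7 in Med1+/+ samples, against 145.7 and 184.6 in Med1-/- samples, without overlap. After quantile normalization both sets were higher in Med1-/- cells. Each separated the genotypes. The first had a log2 change of 0.73 (SE 0.12; adjusted p = 0.00206, limma), and the second set, 1425463_at, changed by 0.50 (SE 0.14; adjusted p = 0.0167, limma). The call of 1425463_at was lost without Med1+/+ replicate 2 (adjusted p = 0.0971) and without Med1-/- replicate 1 (adjusted p = 0.0704). The direction of Gata6 depended on the scaling: scaled on the Bacillus subtilis controls both sets were lower in Med1-/- cells, by -0.88 and -1.31 (adjusted p = 0.000556 and 0.000142, limma), and scaled on the hybridisation controls 1425464_at changed by -0.03 and did not pass (adjusted p = 0.835) while 1425463_at was lower by -0.46 (adjusted p = 0.0185).

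Gata4, the closest relative of Gata6 measured here, was dim and did not pass. On 1418863_at the deposited signal was 27.6 and 54.1 in Med1+/+ samples, against 21.5 and 31.3 in Med1-/- samples. The log2 difference after normalization was 0.43 (95% interval -0.34 to 1.20; adjusted p = 0.262, limma), so changes of more than 2-fold upward were not excluded by these arrays. The mean of this set was 34.9, just above the filter. Its Med1+/+ mean, 29.8, lay under the filter, so it was tested because of its normalized signal in Med1-/- cells. The second set, 1418864_at, read between 1.6 and 2.2 on all 4 arrays.

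**Figure D3:**
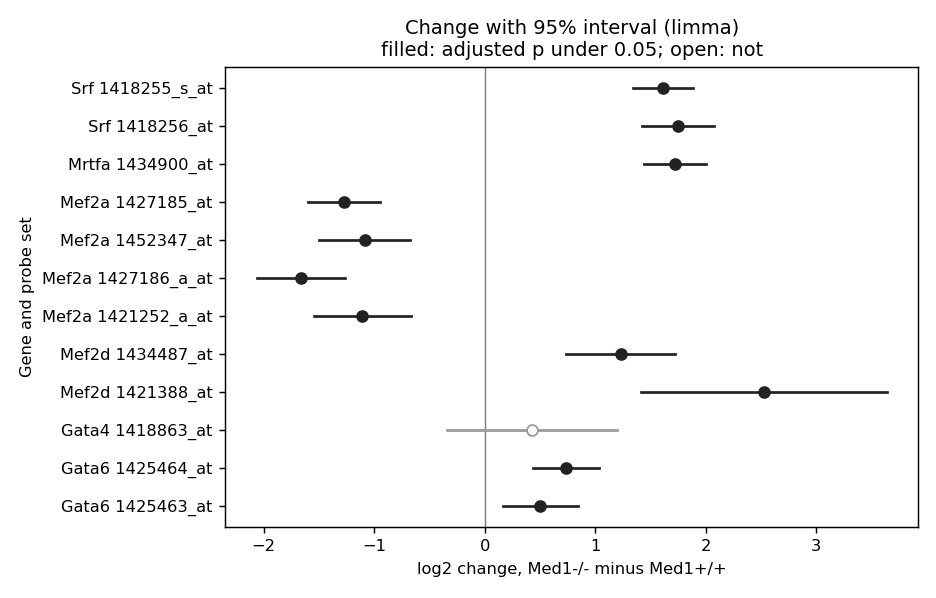
log2 change (Med1-/- minus Med1+/+) of the 12 tested probe sets with 95% intervals from limma, 2 arrays per genotype. Filled points passed an adjusted p of 0.05. Srf and Mrtfa lie between 1.61 and 1.75, the 4 Mef2a sets between -1.66 and -1.09, and the Gata4 interval spans 0.

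The separation among the members was alike under 6 scalings between arrays, most of which multiply every signal of an array by 1 factor and so shift all members together. Relative to the median of all tested probe sets, and for the brightest tested set of each gene, the log2 change was between 1.59 and 1.66 for Srf, 1.68 and 1.73 for Mrtfa, and 1.19 and 1.23 for Mef2d. It lay between -1.40 and -1.30 for Mef2a, 0.71 and 0.87 for Gata6, and 0.24 and 0.40 for Gata4. What depended on the scaling was the position of 0. Without normalization, Srf changed by 0.78 and Mrtfa by 0.84 without passing (adjusted p = 0.178 and 0.131, limma), and scaled on the Bacillus subtilis controls they changed by -0.09 and -0.02 (adjusted p = 0.497 and 0.861). Mef2a 1427185_at was lower and passed under all 6 scalings, with changes from -3.09 to -1.18.

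The same was measured as ratios within each array, computed from deposited signals and therefore free of any array scale. There were 15 ratios between the brightest tested probe sets of the 6 genes, which share those genes and are not independent. Some are given here, the largest among them. The ratio of Srf to Mef2a was 8.20-fold higher in Med1-/- samples, a change of 3.04 log2 (SD 0.18 in Med1+/+ and 0.13 in Med1-/-, n = 2). The ratio of Mrtfa to Mef2a was 8.60-fold higher, and that of Srf to Gata6 was 1.73-fold higher. The ratio of Mef2a to Mef2d changed by -2.61 log2 (SD 0.33 and 0.45, n = 2). Smaller changes were those of Srf to Mef2d, 1.35-fold higher (SD 0.15 and 0.32 log2, n = 2), and of Gata4 to Gata6, -0.56 log2 (SD 0.46 and 0.15, n = 2). An exact permutation test of 2 arrays against 2 cannot give a two-sided p below 0.333, so these ratios are given as values with their spread.

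**Figure D4:**
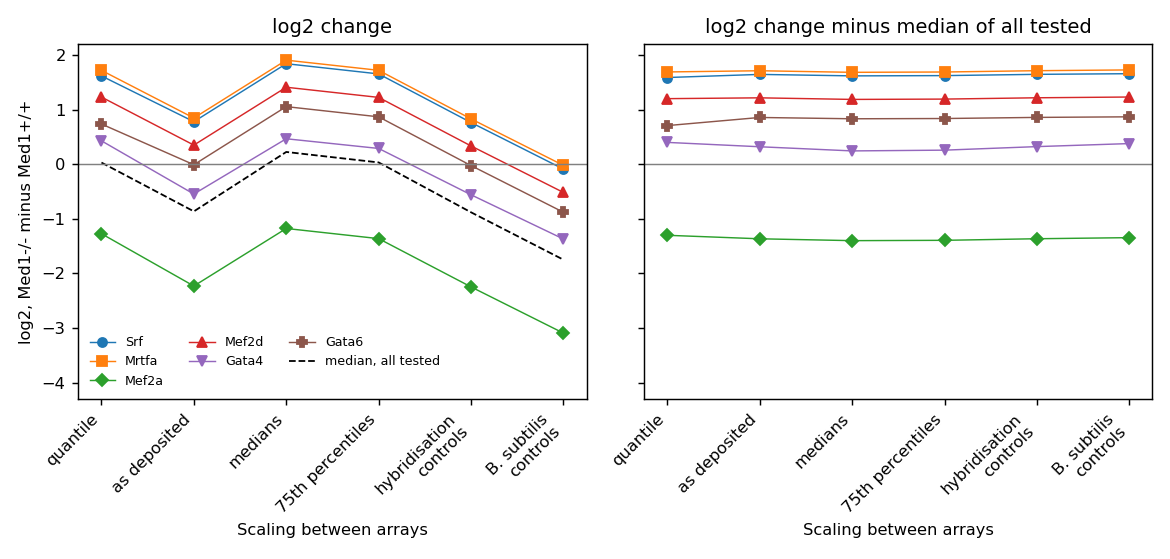
log2 change of the brightest tested probe set of 6 genes (Med1-/- minus Med1+/+) under 6 scalings between arrays, as such (left, with the median of all tested probe sets dashed) and minus that median (right). On the left the curves shift together from scaling to scaling; on the right Srf stays between 1.59 and 1.66 and Mef2a between -1.40 and -1.30.

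The partners, regulators and targets of these factors were described with 6 lists, using the brightest probe set of each gene. The members of each list are counted here without a set test. When 1 probe set is kept for each gene, 75.9% of 8937 were called, with a median of 0.08. Those 8937 include every tested probe set that lacked a single gene name. Partner factors of SRF moved both ways: the array held 14, of which 9 were tested, and 6 of these were higher and 3 lower (median log2 change 1.37). The LIM-domain genes Csrp1 (1.81), Csrp2 (1.37) and Fhl1 (1.52) rose, and Fhl2 (-0.41), another LIM-domain gene, fell. Among the ternary complex factor genes, which encode the growth factor-responsive partners of SRF, Elk1 (1.48) and Elk3 (0.66) rose and Elk4 (-1.25) fell. Elk1 was tested because of its signal in Med1-/- cells, its Med1+/+ mean lying just under the filter. The repressive SRF partner gene Hopx fell by 1.28. Without Med1+/+ replicate 1 the count of lower partners was 1 in place of 3. Without normalization 1 partner was higher and 3 were lower, and with the Bacillus subtilis controls 1 was higher and 4 were lower.

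Cytoskeletal targets of SRF and MRTF were mostly higher in Med1-/- cells, with 22 higher, 5 lower and 2 not called of 29, and a median log2 change of 1.18. The largest rises were in contractile genes, the smooth muscle actin gene Actg2 at 5.39 (deposited 65.4 and 92.4 in Med1+/+, 1652.1 and 2398 in Med1-/- samples), the skeletal actin gene Acta1 at 4.34, the calponin gene Cnn1 at 4.09 and Myh11, the smooth muscle myosin heavy chain gene, at 3.59. Of the 29, 4 passed the filter through 1 genotype only, Myh11, Actc1 and Lmod1 through Med1-/- and Mylk through Med1+/+. Myh11 had deposited signals of 5.9 and 3.8 in Med1+/+ samples, against 35.7 and 48.9 in Med1-/- samples. The size of its fold is therefore affected by the pseudocount. Genes that fell were Tpm4 (-0.97), Mylk (-0.83), Cald1 (-0.78), Pdlim5 (-0.61) and Lima1 (-0.57), and another Pdlim5 probe set was called in the opposite direction. Without Med1+/+ replicate 1 the count of lower genes was 2. Relative to all tested probe sets the list's median stayed between 1.01 and 1.53 over 21 alternative settings. The counts depended on the scaling: with the Bacillus subtilis controls 6 were higher and 10 lower. Actin genes are near-identical, so their probe sets may share signal.

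A CArG box stood in the promoter window of 6 of the 24 cytoskeletal targets that had a window. These 6 are printed to set the box of genes that rose beside that of genes that did not; each line gives 40 bases of RefSeq sequence (GRCm38.p6), 5′ to 3′, with the box in capitals.
Acta1, chr8:123894824-123894863, minus strand: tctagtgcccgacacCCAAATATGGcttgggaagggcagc
Actc1, chr2:114052898-114052937, minus strand: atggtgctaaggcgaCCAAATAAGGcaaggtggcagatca
Cnn2, chr10:79988529-79988568, plus strand: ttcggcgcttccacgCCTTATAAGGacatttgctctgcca
Myl9, chr2:156775288-156775327, plus strand: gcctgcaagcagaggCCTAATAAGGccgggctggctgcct
Vcl, chr14:20929156-20929195, plus strand: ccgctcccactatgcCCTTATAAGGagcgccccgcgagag
Lima1, chr15:99820172-99820211, minus strand: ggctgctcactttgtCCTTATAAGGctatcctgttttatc
Of these genes Acta1 (4.34), Actc1 (2.01), Myl9 (1.21) and Cnn2 (1.10) rose, Lima1 (-0.57) fell, and Vcl (0.02) did not pass. Actc1 was tested because of its signal in Med1-/- cells, its Med1+/+ mean lying under the filter. The box of Cnn2, which rose, has the same letters as those of Vcl and Lima1.

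Of the immediate early targets of SRF and the ternary complex factors, 7 of 10 passed the filter, and 6 of these were higher and 0 lower (median log2 change 1.08). Fosl1 (1.48), Junb (1.44), Fos (1.19) and Ier2 (1.08), all induced within minutes to hours of serum, rose, and Mcl1 (-0.07) did not pass. Of the 10 genes 6 had a promoter window, and only that of Egr2, a zinc finger gene, held a CArG box. Egr2 was below the filter, with deposited signals of 45.8 and 70.6 in Med1+/+ samples, against 7.6 and 13.1 in Med1-/- samples. The list had 1 gene called lower with no filter, with a filter at the 20th percentile, with a filter on the brighter genotype, and without Med1-/- replicate 1. No gene of the list was called higher without normalization (limma, 0 higher and 1 lower) or when the Bacillus subtilis controls set the scale (0 higher and 6 lower).

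Regulators and partners of MEF2 had 8 higher and 2 lower of 10 tested (median log2 change 1.0). The arginine methyltransferase gene Carm1 (1.46), the protein kinase D gene Prkd1 (1.40), which drives class IIa deacetylases out of the nucleus, and the deacetylase gene Hdac7 (1.35) rose, and Ppp3ca (-1.29), a calcineurin catalytic subunit gene, fell. Mapk7 (1.22), the ERK5 gene, whose product phosphorylates MEF2 factors, also rose. Without normalization 0 regulators were higher and 2 lower (limma), with the hybridisation controls 3 and 3, and with the Bacillus subtilis controls 0 and 8. MEF2 targets had 4 higher, 1 lower and 2 not called of 7 tested (median 0.69): Des (3.78), Jun (1.35), Slc2a4 (1.24) and Nr4a1 (0.69) rose and Klf2 (-0.50) fell. Slc2a4 was tested because of its signal in Med1-/- cells, its Med1+/+ mean lying under the filter. As deposited its genotypes overlapped, with 14.3 and 48.8 in Med1+/+ and 30.9 and 34.3 in Med1-/- samples. Slc2a4 and Klf2 passed narrowly (adjusted p = 0.0460 and 0.0486, limma). Nr4a1 is in the immediate early list as well. With 7 genes the MEF2 target list rests on few values: relative to all tested probe sets its median was 0.34 without Med1-/- replicate 1 and 0.28 without Med1-/- replicate 2, its lower count was 3 without Med1-/- replicate 2, and its median was -0.06 in the values as deposited. With the Bacillus subtilis controls 1 was higher and 5 were lower.

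The GATA family and its partners had 3 higher, 2 lower and 3 not called of 8 tested (median log2 change 0.11). Zfpm1, the gene of the GATA cofactor FOG1, rose by 2.65 (deposited 132.4 and 206.5 in Med1+/+, 449.7 and 728.9 in Med1-/- samples), Hand2 by 1.66 and Gata2 by 0.83. Hand2 was tested because of its signal in Med1-/- cells, its Med1+/+ mean lying under the filter. Trps1 (-1.16), which encodes a GATA-type repressor, and Zfpm2 (-0.56), the gene of the GATA4 cofactor FOG2, fell. Gata3 (0.04) did not pass. With the Bacillus subtilis controls 1 was higher and 6 were lower. Without Med1+/+ replicate 2 the lower count was 1, and without Med1-/- replicate 2 the median relative to all tested probe sets was -0.13.

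**Figure D5:**
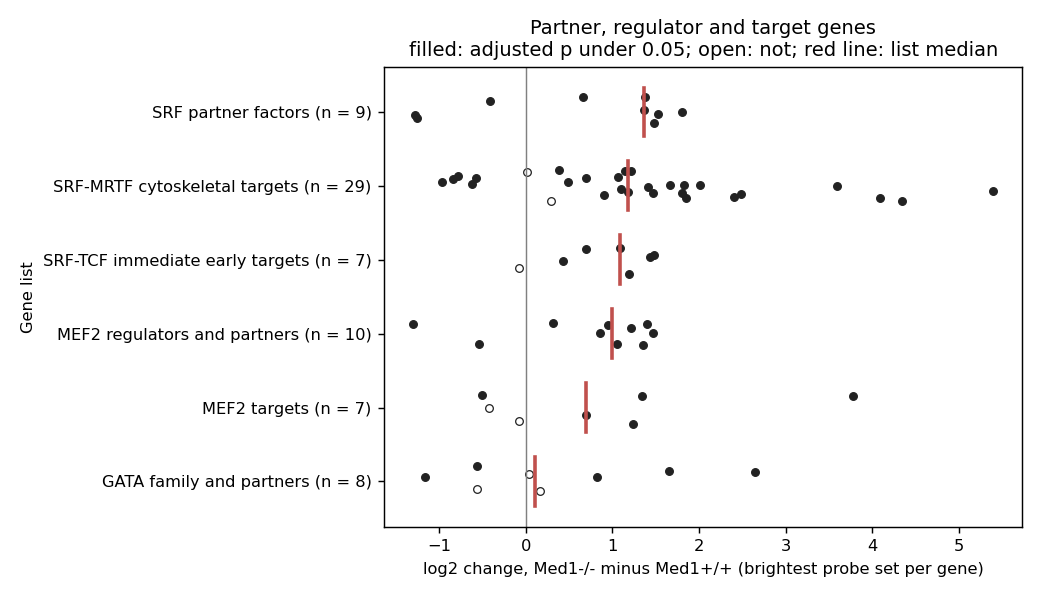
log2 change (Med1-/- minus Med1+/+) of the tested genes of 6 lists of partners, regulators and targets, 1 point per gene from its brightest probe set; filled points passed an adjusted p of 0.05 and red lines are list medians. The cytoskeletal list reaches 5.39 (Actg2) and has a median of 1.18, and the GATA list is centred near 0.11.

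Markers of cell types in which these factors are known were examined beside the members. Of 13 cardiac markers 2 passed the filter, Nppb (2.39) and Tnnt2 (1.25), and both rose. The summed normalized signal of the list was 225 to 243 in Med1+/+ and 674 to 678 in Med1-/- samples. Nppb made up most of the rise, with normalized signals of 76.7 and 68.9 in Med1+/+ and 419.6 and 361.2 in Med1-/- samples. Those of Tnnt2 were 62.4 and 57.3 against 134.8 and 154.5. The sarcomeric Myh6 and Myl2 gave normalized signals below the filter on every array, as did the heart factor gene Nkx2-5. Of 12 skeletal markers 1 passed, Acta1, which is also a cytoskeletal target, and Myod1 and Myog were below the filter. The list's sum was 137 to 143 in Med1+/+ and 1456 to 1635 in Med1-/- samples. Most of the rise in that sum was Acta1, with normalized signals of 59.1 and 79.9 in Med1+/+ and 1344 and 1511.5 in Med1-/- samples. Of 10 endoderm markers on the array 2 passed, with Foxa2 lower by -0.48, and sums of 546 to 584 and 491 to 503. Mesothelial and epicardial markers had 2 higher, Wt1 (0.75) and Upk3b (0.71), and 3 lower, among them Tbx18 (-0.996), of 5 tested. Their sums were 4041 to 4194 in Med1+/+ and 5484 to 5587 in Med1-/- samples. Upk3b alone made up 2307 to 2595 of the Med1+/+ sums and 3885 to 4108 of the Med1-/- sums. Of the remaining lists, endothelial markers had 0 called of 1 and blood markers 1 higher of 2. Epithelial markers had the lowest median of the marker lists, -3.92, with 4 lower and 1 higher of 5 tested. Cdh1 (-4.50), Krt18 (-4.45), Dsp (-3.92) and Krt8 (-1.96) fell, whereas Krt19 (1.61) rose. The median of the list is the value of Dsp. Dsp was tested because of its signal in Med1+/+ cells, its Med1-/- mean lying just under the filter. The list's sum was 4712 to 4843 in Med1+/+ and 2337 to 2697 in Med1-/- samples. Krt19 contributed 725 to 741 to the Med1+/+ sums and 2041 to 2460 to the Med1-/- sums. The part of these other markers in the values of the members and the contractile targets was not tested.

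The profile over the 4 arrays was compared with those of other genes by the root mean square difference of mean-centred log2 values. The genes nearest to Srf were Rab11b (0.0058), Chmp1a (0.015) and Nr2c2ap (0.016), and 279 probe sets of named genes lay within 0.1 of Srf. Nearest to Mef2d 1421388_at, the tested member set with the largest change, were Hlx (0.085), Psg28 (0.15) and Itga3 (0.27). Only 1 probe set of a named gene lay within 0.1 of that Mef2d set. With 4 arrays and most genes called, many genes share a profile like that of Srf.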

How the data were processed

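The authors deposited a table with a linear intensity for each probe set on each array; their probe summary, background correction and scaling are not stated in the labels or the table. Of its rows, the 64 control probe sets were left out, the other 22626 were quantile normalized, and values were taken as log2(value + 1.7), the 10th percentile of the table, a scale that understates changes at low signal. The 13576 probe sets whose mean reached the 40th percentile were tested with R 4.3.3 and limma 3.58.1 (a linear model with moderated variances that follow intensity, two-sided, Benjamini-Hochberg; 2 residual and 4.33 prior degrees of freedom), and the script was checked on simulated data. Gene names are those of the platform's annotation brought up to date with RefSeq (GRCm38.p6): 20380 probe sets had 1 symbol, 691 several and 1555 none. Named were all members, Med1, up to 4 called genes per list with the largest change, and nearest profiles; other list genes, such as those with a CArG box, were named after their values were seen. The members and lists were chosen with earlier results of these data known. The number of arrays, 2 per genotype, limits precision. Figures used matplotlib 3.10.9. Some genes of the pathway are not reported here.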

Additional observations from a re-analysis of the deposited data

How the results depend on the processing

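The main test called 9783 probe sets, among them 7 member probe sets higher and 4 lower. In the values as deposited 6462 were called and 1 member higher, and with a 2-fold minimum 5399 were called. Members called higher numbered 4 when hybridisation controls set the scale and 0 when Bacillus subtilis controls did, a scaling chosen after seeing the data (limma; 7 members had an unadjusted p under 0.05 there). Members called lower numbered 7 with no filter and 2 with a filter at the 60th percentile. With 1 probe set per gene 4 members were higher and 1 lower. Leaving out each array in turn gave 8111 to 9421 calls, 6 to 7 members higher and 4 lower. The cause of these shifts was not tested, other than that fewer or more probe sets enter with another filter or with 1 per gene.

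Directions reversed under 3 scalings. In the values as deposited Gata4 1418863_at changed by -0.55 (it was not called in any setting), Gata6 1425464_at by -0.011 and 1425463_at by -0.45, and on the hybridisation controls by -0.56, -0.026 and -0.46. On the Bacillus subtilis controls Srf changed by -0.091 (1418255_s_at) and -0.021 (1418256_at), Mrtfa by -0.023, Mef2d 1434487_at by -0.52, and Gata6 by -0.88 and -1.31. The median of the MEF2 targets relative to all probe sets was -0.062 as deposited, -0.061 with the hybridisation controls and -0.047 with the Bacillus subtilis ones, and that of the GATA partners was -0.13 without Med1-/- replicate 2 and up to 0.19 without another array. The 4 tested Mef2a probe sets kept their direction and their call wherever they were tested.

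The labels number the arrays of both genotypes 1 and 2. Deviations of same-numbered arrays from their genotype means correlated at 0.285 over tested probe sets, which with 2 pairs does not show that the numbers pair samples. With the replicate number as a block 10879 probe sets were called, with 7 members higher and 4 lower. The pseudocount, the variance model and a stricter threshold left 6 or 7 members higher and 4 lower.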
